A study of Mus musculus with 28 samples.

Results

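Litaf, Sh3tc2, Ndrg1, Mtmr2, Sbf1, Sbf2, Fig4, Fgd4, Gdap1 and Mfn2 are the mouse counterparts of 10 genes whose variants cause Charcot-Marie-Tooth disease, the inherited neuropathy of peripheral nerve. They were chosen by name, for their roles in membrane traffic, phosphoinositide turnover and mitochondrial shape, and they make up 10 of the 41605 gene identifiers in the table. All 10 passed the filter on low counts and were tested among 17700 genes. Bulk poly-A RNA sequencing followed mouse peripheral nerve through 7 stages with 4 libraries each, 28 in all. The embryo was sampled at days (E) 13 and 17 as labelled, which the series' design text gives as 13.5 and 17.5, and the mouse after birth at days (P) 1, 5, 14, 24 and 60.

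All animals were wild-type C57BL/6J mice of both sexes that had not been perfused, with samples of each sex at every stage, although the library labels do not tell which is which. At E13 the tissue was various peripheral nerves beyond the dorsal root ganglia, pooled from 2 embryos a library, although the labels name the sciatic nerve at every stage. At E17 it was sciatic nerve pooled from 2 embryos, and from P1 on sciatic nerve of 1 mouse. The outer sheaths were stripped off as far as possible from E17 on and not at E13, so that age, tissue source and dissection cannot be told apart in any comparison with E13. In bulk tissue, fewer cells of a type and less RNA per cell cannot be told apart either.

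The neuropathies caused by these genes are mostly demyelinating, that is, they strike the myelin sheath that a Schwann cell wraps around an axon, except that MFN2 disease is chiefly axonal and GDAP1 disease takes either form. Growth of myelin asks a Schwann cell to sort large amounts of membrane through endosomes. The identity of those endosomes is set by phosphoinositides, lipids that kinases phosphorylate and phosphatases dephosphorylate. MTMR2 removes the phosphate at the D3 position of phosphatidylinositol phosphates and binds SBF1 or SBF2, relatives that have lost the catalytic residues and guide or stimulate it.

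The total count per library ran from 13899895 to 37662780. E13 replicates 1 and 4 and P1 replicate 1 stood apart from the other libraries of their stage, with a median absolute log2 difference of 0.683, 0.618 and 0.310 against at most 0.287 elsewhere, and they also showed slopes of expression on GC content (log2 per 10 percentage points of GC) of -0.876, 0.677 and -0.393. No 2 libraries held identical values. The Schwann cell lineage markers Sox10, S100b and Erbb3 were detected in every library, and Sox10 averaged 117 ± 59 CPM (SD, n = 4) at E13 and 326 to 468 CPM at the later stages. Levels are given in CPM, a gene's reads scaled to an equal library total, after TMM scaling (a scaling factor per library that makes most genes level between libraries), and a gene passed when the Benjamini-Hochberg adjusted p of edgeR's quasi-likelihood test was under 0.05 over all tested genes, with no minimum fold change.

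Sequences before the RefSeq transcript starts (GRCm38.p6) were at hand for 7 of the 10 genes. Shown are the 250 bases before the start of Sbf1 and Sbf2, the related pair whose ratio is followed further on, and of the first listed starts of Mtmr2 and Fgd4, the only ones of 13 member windows that held a searched motif. All read 5′ to 3′ on the gene's strand, which is plus for Mtmr2 and minus for the others, and the capitals mark the motif.
Sbf1 chr15:89315312-89315561: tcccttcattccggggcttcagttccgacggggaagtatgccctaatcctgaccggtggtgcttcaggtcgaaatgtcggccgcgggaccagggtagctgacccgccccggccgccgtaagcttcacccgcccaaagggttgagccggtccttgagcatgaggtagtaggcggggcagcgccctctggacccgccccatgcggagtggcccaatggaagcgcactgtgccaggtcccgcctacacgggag
Sbf2 chr7:110614921-110615170: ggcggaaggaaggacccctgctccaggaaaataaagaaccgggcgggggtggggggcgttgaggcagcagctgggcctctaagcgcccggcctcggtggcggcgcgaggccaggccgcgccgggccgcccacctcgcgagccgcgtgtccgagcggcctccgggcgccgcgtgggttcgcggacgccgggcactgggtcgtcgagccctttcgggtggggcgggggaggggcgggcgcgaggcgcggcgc
Mtmr2 chr9:13748929-13749178: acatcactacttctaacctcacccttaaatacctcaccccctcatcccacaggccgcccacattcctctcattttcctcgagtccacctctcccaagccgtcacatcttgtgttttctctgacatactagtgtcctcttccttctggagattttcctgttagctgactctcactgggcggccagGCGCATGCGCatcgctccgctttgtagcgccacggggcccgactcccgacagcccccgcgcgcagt
Fgd4 chr16:16599979-16600228: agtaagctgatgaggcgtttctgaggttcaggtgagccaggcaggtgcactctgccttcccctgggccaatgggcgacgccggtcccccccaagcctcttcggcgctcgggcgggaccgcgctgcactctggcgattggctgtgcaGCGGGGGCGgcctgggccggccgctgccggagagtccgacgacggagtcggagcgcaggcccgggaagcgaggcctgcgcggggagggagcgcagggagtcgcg
The Mtmr2 match is an NRF1 site (GCGC, any base, then TGCGC) at 66 to 57 bases before the start, and the Fgd4 match an EGR site (GCGNGGGCG) at 104 to 96 bases before it. Both strands were searched, and 3.77% and 4.74% of all 32536 distinct windows of this length held these motifs. An E-box core (CACGTG, in 6.04% of windows) and an ERR site (CAAGGTCA, in 1.33%) were found in no member window. The Sbf2 window had a GC content of 78.0% and the Sbf1 window 66.0%, beside a median of 52.4% over all windows. These matches describe letters in a window only, and no binding was measured.

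Across the timeline 9 of the 10 genes differed between stages (F test of all stages), a share to be read beside the 88.8% of all tested genes that did so. The exception was Sbf1 (adjusted p = 0.953), although all 10 passed when the 3 libraries that stood apart were left out. The amplitude differed widely among members: the highest stage mean was 1.16 times the lowest for Sbf1, 1.71 times for Mfn2, 1.92 times for Fig4, 2.98 times for Litaf, 3.56 times for Fgd4, 3.87 times for Mtmr2, 6.01 times for Sbf2, 7.14 times for Sh3tc2, 54.9 times for Ndrg1 and 153 times for Gdap1. The plot of levels by stage shows the different courses.

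**Figure D1:**
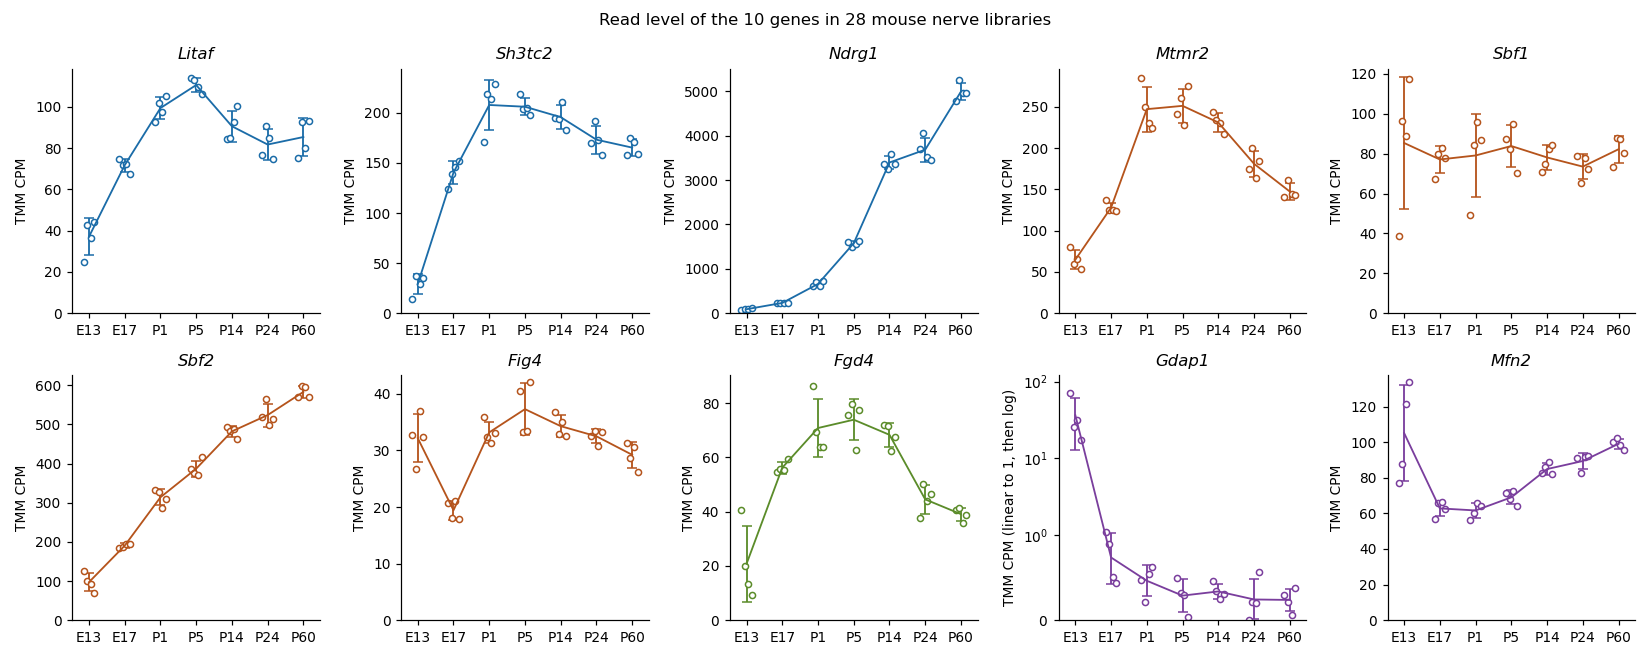
Level of each gene in TMM-scaled CPM by stage, with 1 open point per library (4 a stage), a line through the stage means and bars of ± SD; the Gdap1 axis is linear up to 1 CPM and logarithmic above. Ndrg1 and Sbf2 climbed to P60, Mtmr2 and Fgd4 were highest at P1 to P14, Sbf1 stayed between 73.5 and 85.4 CPM on average, and Gdap1 was high at E13 alone.

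Ndrg1, which encodes a cytoplasmic protein of Schwann cells implicated in receptor trafficking, had the largest rise. The 4 libraries gave 72.6, 90.9, 89.5 and 111 CPM at E13, and 230, 231, 231 and 238 CPM at E17. They gave 614, 694, 610 and 725 CPM at P1, then 1616, 1499, 1568 and 1628 CPM at P5. They gave 3358, 3261, 3598 and 3371 CPM at P14 and 4778, 5254, 4974 and 4972 CPM at P60. These 6 stages did not overlap with one another, and P24 (3454 to 4060 CPM) overlapped with P14 alone. Ndrg1 rose in each step up to P14, by 1.35 ± 0.10 (log2 ± SE) from E13 to E17, 1.51 ± 0.10 to P1, 1.26 ± 0.10 to P5 and 1.11 ± 0.10 to P14. From P14 to P24 its change of 0.12 ± 0.10 did not pass (adjusted p = 0.669), and from P24 to P60 it rose again by 0.44 ± 0.10 (adjusted p = 0.00272). At P14 against E17 it was 14.6-fold higher (adjusted p = 1.56e-20). Antisense and bidirectional genes overlap 419 and 137 bases of its exons, and they had 96 and 57 counts in all libraries together beside 1157951 of Ndrg1.

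Litaf encodes a small membrane protein of late endosomes that recruits sorting machinery. Its libraries gave 24.7, 43.0, 36.3 and 44.4 CPM at E13, 75.0, 72.0, 72.5 and 67.6 CPM at E17, and 114, 113, 110 and 106 CPM at P5. The level at P5 lay above every library of every other stage, and from P1 to P60 the other stages overlapped in the order of their means. Litaf rose 1.94-fold from E13 to E17 (adjusted p = 2.51e-07) and 1.39-fold to P1 (adjusted p = 0.00461), and then changed by 0.15 ± 0.12 to P5 (adjusted p = 0.451) and -0.29 ± 0.12 to P14 (adjusted p = 0.0818). At P14 it was still 1.26-fold above E17 (log2 0.34 ± 0.12, adjusted p = 0.0224), a call that was lost without E17 replicate 4 (adjusted p = 0.0502) or without P14 replicate 4 (adjusted p = 0.0779), and that turned to -0.16 under scaling by library size alone (adjusted p = 0.239). Litaf shares 95 exon bases, 1.84% of its exons, with Snn on the opposite strand. Whether the counting used the strand is not stated in the sources used here, so reads from the shared bases cannot be told apart, and Snn had 116397 counts in all beside 52097 of Litaf.

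Sh3tc2, a Schwann cell protein of the Rab11 recycling endosome, followed a course close to that of Litaf (Pearson correlation of log2 CPM 0.963 over 28 libraries, a description that includes the shared step from E13). It stood at 14.4, 37.5, 29.4 and 35.2 CPM at E13, 124, 139, 146 and 152 CPM at E17, 171, 219, 214 and 228 CPM at P1, and 158, 175, 171 and 159 CPM at P60. The E13 and E17 libraries each lay below all later ones, while every pair of neighbours in the order P1, P5, P14, P24, P60 overlapped. It was 4.83-fold higher at E17 than at E13 (adjusted p = 1.18e-11), the largest rise of the 10 genes in that step, and 1.48-fold higher at P1 than at E17 (adjusted p = 0.0102). No later adjacent step passed, and P60 differed from P14 by -0.24 ± 0.17 (adjusted p = 0.294) in the fit of all libraries.

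Mtmr2, the phosphatase that the SBF proteins bind, was highest from P1 to P14. Its libraries gave 80.8, 59.4, 65.2 and 54.0 CPM at E13, 137, 125, 126 and 124 CPM at E17, and 285, 249, 231 and 224 CPM at P1. At P14 they gave 244, 234, 230 and 217 CPM, and at P60 141, 162, 144 and 143 CPM. P1, P5 and P14 overlapped, and P24, P60, E17 and E13 followed below without overlap in that order. It rose 1.97-fold to E17 (adjusted p = 1.06e-08) and 1.93-fold to P1 (adjusted p = 8.34e-08), and fell by 0.65 ± 0.11 on the log2 scale from P14 to P60 (adjusted p = 2.93e-05). The part of that fall from P14 to P24 was at the threshold (-0.35 ± 0.11, adjusted p = 0.0486) and was lost in 12 of 21 other settings. Among them were a fold of at least 2 and the omission of any 1 P14 library and of P24 replicates 1, 3 or 4.

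Sbf2 and Sbf1 are the catalytically inactive partners of Mtmr2. Sbf2 stood at 126, 101, 92.4 and 69.0 CPM at E13, 185, 187, 195 and 195 CPM at E17, 493, 484, 489 and 463 CPM at P14, and 571, 598, 595 and 569 CPM at P60. None of its 7 stages overlapped with its neighbour in level, and the order of the means was the order of age. It was 1.96-fold higher at E17 than at E13 (adjusted p = 3.03e-08), 1.65-fold higher at P1 than at E17 (adjusted p = 1.41e-05) and 2.53-fold higher at P14 than at E17 (adjusted p = 8.35e-11). The single steps after P1 were smaller, and of these P14 against P5 passed (0.32 ± 0.11, adjusted p = 0.032), a call lost in 9 of 21 other settings, a fold of at least 2 among them.

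Sbf1 stood at 38.8, 96.3, 88.9 and 118 CPM at E13, 67.5, 80.0, 83.1 and 77.9 CPM at E17, 70.6, 75.1, 82.3 and 84.6 CPM at P14, and 73.5, 87.9, 87.3 and 80.2 CPM at P60. All stages overlapped with their neighbours in level. The change was 0.02 ± 0.21 from E17 to P14 (adjusted p = 0.949) and 0.07 ± 0.21 from P14 to P60 (adjusted p = 0.842). The lowest values were those of E13 replicate 1 and of P1 replicate 1 (49.1 CPM), which of the 3 libraries that stood apart are the pair with a negative GC slope, and the exons of Sbf1 had a GC content of 58.5%, the 92.2nd percentile of tested genes. Without E13 replicate 1, Sbf1 was lower at E17 than at E13 (-0.40, adjusted p = 0.0171), and likewise without the 3 libraries that stood apart (-0.26, adjusted p = 0.0314), whereas the change was 0.05 without E13 replicate 4 (adjusted p = 0.854) and -0.05 with the GC trend taken out (adjusted p = 0.593). The part of GC content in these values was not tested.

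The ratio of Sbf2 to Sbf1 counts was 0.587 to 3.25 at E13, 2.34 to 2.74 at E17, 5.47 to 6.98 at P14 and 6.80 to 7.76 at P60. At P1 it was 2.99 to 6.76 and at P5 3.89 to 5.91. The mean log2 ratio was 2.63 at P14 and 1.31 at E17, with every P14 library above every E17 library (two-sided exact permutation test, p = 0.0286, which is the smallest p that 4 against 4 libraries allow, and 0.0571 adjusted over 2 comparisons). It was 0.20 higher at P60 than at P14 (exact permutation p = 0.0857). This compares counts, not molecules, since Sbf2 has 14783 and Sbf1 6826 bases of annotated exon. The genes also differ in GC content, with 45.8% for Sbf2 and 58.5% for Sbf1. The highest ratios at E13 and P1 came from replicate 1 of each stage, with GC slopes of -0.876 and -0.393. The lowest at E13 came from replicate 4, with a slope of 0.677. The part of GC content in the ratio was not tested.

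**Figure D2:**
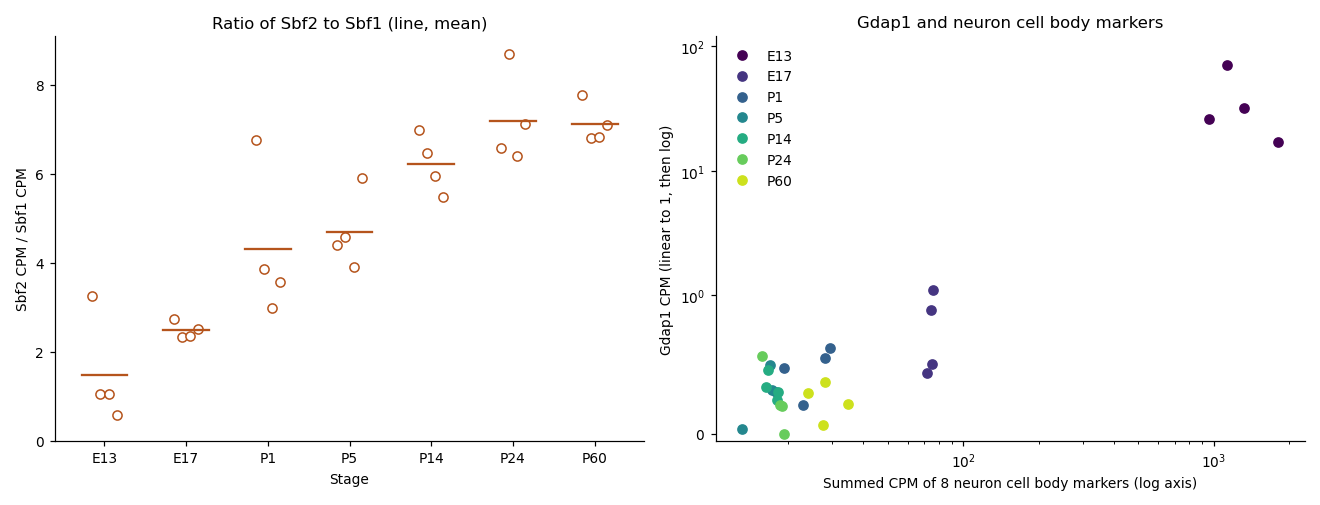
Left, ratio of Sbf2 to Sbf1 CPM in each library by stage (points) with the stage mean (line). Right, Gdap1 CPM (linear up to 1, then logarithmic) against the summed CPM of 8 neuron cell body markers (logarithmic) in the 28 libraries, coloured by stage. The ratio averaged 2.48 at E17 and 6.21 at P14, and the 4 E13 libraries lie apart from all others in both measures on the right.

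Fig4, a phosphatase that acts with the kinase Pikfyve and the scaffold Vac14 on the lipid of late endosomes, dipped at E17. Its libraries gave 32.7, 26.7, 37.0 and 32.3 CPM at E13, 20.7, 18.0, 21.1 and 17.9 CPM at E17, and 35.8, 32.4, 31.4 and 33.2 CPM at P1. The E17 libraries lay below all others, and the other 6 stages overlapped with their neighbours in level. Fig4 fell by 0.73 ± 0.11 on the log2 scale to E17 (adjusted p = 1.20e-06), rose by 0.77 ± 0.11 to P1 (adjusted p = 2.02e-06) and passed in no later adjacent step.

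Fgd4 encodes frabin, an exchange factor that loads the small GTPase Cdc42 with GTP. It stood at 40.8, 19.9, 13.3 and 9.10 CPM at E13, 54.5, 55.7, 55.2 and 59.4 CPM at E17, 71.8, 71.5, 62.4 and 67.6 CPM at P14, and 40.5, 41.4, 35.9 and 38.6 CPM at P60. The GC slopes of the E13 libraries were -0.876, 0.0632, 0.135 and 0.677 in the same order. Fgd4 had a GC content of 42.5%, the 12.3rd percentile of tested genes, and the part of GC content in its E13 values was not tested. The P14 libraries lay above E17 and the P60 libraries below it, without overlap. Fgd4 rose 2.69-fold from E13 to E17 (adjusted p = 1.78e-05), and its difference between P14 and E17 did not pass (0.28 ± 0.24, adjusted p = 0.336). That difference passed, as higher, in 6 of the other settings, among them the fits without E13 (adjusted p = 0.0193) and without the 3 libraries that stood apart (adjusted p = 0.00671). It fell by 0.81 ± 0.25 on the log2 scale from P14 to P60 (adjusted p = 0.0134), which missed the threshold under scaling by library size alone (adjusted p = 0.0598).

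Gdap1 encodes a protein of the mitochondrial outer membrane that bears on fission. It had 70.8, 25.8, 31.7 and 17.2 CPM at E13 and 1.10, 0.898, 0.504 and 0.440 CPM at E17, and no later library was above 0.621 CPM. These are 326 to 2139 counts in the E13 libraries, 7 to 20 at E17 and 0 to 20 after birth. Gdap1 fell by 5.63 ± 0.48 on the log2 scale from E13 to E17 (adjusted p = 1.04e-10), the largest change of the 10 genes in that step, and no later adjacent step passed. At P14 it was lower than at E17 by 1.13 ± 0.59 on the log2 scale (adjusted p = 0.105), a difference that passed in 5 of the other settings with adjusted p from 0.0205 to 0.049. Among the postnatal stages no adjacent step passed, at 0 to 20 counts a library.

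The drop of Gdap1 went with that of neuron cell body markers. The summed level of Rbfox3, Snap25, Syt1, Prph, Isl1, Tubb3, Elavl4 and Scn9a was 957 to 1813 CPM at E13, 71.5 to 75.8 CPM at E17 and 13.1 to 34.6 CPM after birth, with 7 of the 8 lower at E17. Within E13 the library highest in Gdap1 (replicate 1, 70.8 CPM) had a marker sum of 1134 CPM, and the one lowest in Gdap1 (replicate 4, 17.2 CPM) had the highest sum, 1813 CPM. Much of that sum was Tubb3, at 796 ± 438 CPM (SD) at E13. These replicates had GC slopes of -0.876 and 0.677, and Gdap1 had a GC content of 41.9%, the 10.2nd percentile of tested genes. The part of GC content in the spread of Gdap1 within E13 was not tested. The summed level of blood markers was 668 to 6736 CPM at E13 and 358 to 1000 CPM at E17, with 6 of 6 lower, and that of skeletal muscle markers was 14.2 to 268 CPM at E13 and 6.13 to 22.6 CPM at E17, with 4 of the 5 tested of 8 lower, Ckm higher (0.101 to 1.11 CPM on average), and Myh1 and Myh4 at 0 in every E17 library. The part of these cells in the E13 values of any member was not tested.

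Mfn2, the mitofusin that joins outer mitochondrial membranes, had a shallow trough. Its libraries gave 77.2, 88.0, 122 and 134 CPM at E13, 56.7, 65.9, 66.1 and 62.5 CPM at E17, 82.4, 86.2, 88.7 and 82.2 CPM at P14, and 100, 102, 98.4 and 95.4 CPM at P60. E17, P1 and P5 overlapped at the bottom, P14 and P24 lay above them, and P60 overlapped with E13 alone. Mfn2 fell by 0.74 ± 0.12 on the log2 scale to E17 (adjusted p = 4.68e-06). It was 1.35-fold higher at P14 than at E17 (adjusted p = 0.00258), which turned to -0.057 on the log2 scale under scaling by library size alone (adjusted p = 0.669). The rise spread over the steps P5 to P60, none of which passed alone in the fit of all libraries (adjusted p = 0.0549 for P14 against P5, which passed in 9 of 21 other settings with log2 changes of 0.29 to 0.32).

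Counted by step, 6 of the 10 genes were higher and 3 lower at E17 than at E13, where 28.1% and 34.1% of all tested genes were higher and lower. In the same step Sox10, S100b and Erbb3 were higher, as were the 3 markers of immature or non-myelinating Schwann cells (Ngfr, Ncam1 and L1cam, summed level 475 to 621 CPM at E13 and 1447 to 1596 CPM at E17) and the proliferation markers Mki67 and Top2a (168 to 379 and 1727 to 1806 CPM). Both perineurial markers (21.1 to 65.9 and 186 to 226 CPM) were higher too and both endoneurial ones lower (72.4 to 259 and 46.1 to 55.6 CPM), while 2 of 3 endothelial markers were higher and 1 lower, and of the myelinating Schwann markers Mbp (67.7 and 1117 CPM on average) was higher and Ncmap (1.12 and 0.698 CPM) lower. The part of these cells in the members' changes was not tested. At P1 against E17, 6 were higher and 4 did not pass (Sbf1, Fgd4, Gdap1 and Mfn2), where 15.1% of all genes were higher and 14.4% lower. Both myelinating Schwann markers were higher there (1033 to 1209 CPM at E17 and 4604 to 10875 CPM at P1), and the 3 of immature or non-myelinating Schwann cells (1447 to 1596 and 569 to 679 CPM), both of proliferation, 6 of 6 of blood and 4 of 8 of neurons were lower, and their part was not tested. At P5 against P1, Ndrg1 alone passed (10.3% of all genes higher, 7.33% lower). At P14 against P5, Ndrg1 and Sbf2 were higher (15.4%, with 14.2% lower), while under scaling by library size alone Ndrg1 was higher and Litaf, Fig4 and Mtmr2 lower. At P24 against P14, Mtmr2 alone passed, as lower (2.72% of all genes, with 2.72% higher), and at P60 against P24 Ndrg1 alone, as higher (6.84%, with 9.23% lower). Cell type markers changed in these later steps too. At P5 against P1 both myelinating Schwann markers were higher (4604 to 10875 CPM at P1 and 25939 to 31339 CPM at P5). The 3 of immature or non-myelinating Schwann cells were lower there, and both of proliferation were lower in every step from P1 to P60. Their part was not tested.

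Over P14 against E17, from the late embryo to active myelin growth, 7 of the 10 genes were higher (Litaf, Sh3tc2, Ndrg1, Mtmr2, Sbf2, Fig4, Mfn2) and 3 did not pass (Sbf1, Fgd4, Gdap1), beside 29.5% of all genes higher and 27.0% lower. The median change of the 10 was 0.46 on the log2 scale, and that of all tested genes 0.00. Of the 7 that passed, Ndrg1 and Sbf2 had a fold of at least 2. Under scaling by library size alone the median of all genes moved to -0.48, and 4 of the 10 were higher (Ndrg1, Mtmr2, Sbf2, Fig4) and 2 lower (Sbf1, Gdap1), with Litaf, Sh3tc2, Fgd4 and Mfn2 turning to small negative values that did not pass. The split of all genes called was then 27.3% higher instead of 52.2%. The changes given here are relative to most other genes and not to all RNA in the library. In fits without E13, of the compared stages alone, without the 3 libraries that stood apart, with limma-voom or with the GC trend removed, 8 were higher, with Fgd4 added.

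Cell type markers moved in the same comparison. Both perineurial markers (Slc2a1 and Itgb4, summed level 186 to 226 CPM at E17 and 406 to 476 CPM at P14), both epineurial markers (Pcolce2 and Ly6c1, 3.65 to 5.23 and 37.8 to 56.7 CPM) and both markers of pericytes and smooth muscle (Acta2 and Pdgfrb, 70.6 to 77.7 and 222 to 253 CPM) were higher at P14. Both myelinating Schwann markers (Mbp and Ncmap) were also higher, from 1033 to 1209 CPM at E17 to 45142 to 58679 CPM at P14. The 3 markers of immature or non-myelinating Schwann cells (Ngfr, Ncam1 and L1cam, 1447 to 1596 and 319 to 397 CPM) and the proliferation markers Mki67 and Top2a (1765 and 107 CPM on average) were lower. Of the other lists, 3 of 4 adipocyte and 2 of 3 endothelial markers were higher, and 5 of 6 blood, 5 of 8 neuron and 1 of 2 endoneurial markers (46.1 to 55.6 and 9.36 to 14.9 CPM) and 1 of 2 immune markers lower. The Schwann lineage markers went both ways, with mean levels of 43.5 and 672 CPM at E17 and P14 for S100b, 326 and 468 CPM for Sox10 and 853 and 553 CPM for Erbb3. Their part in the members' changes was not tested.

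Over P60 against P14, from active myelin growth to the adult nerve, Ndrg1 was higher and Mtmr2 and Fgd4 lower, beside 14.2% of all genes higher and 15.7% lower. Under scaling by library size alone, where the median of all genes moved to 0.15, Ndrg1, Sbf2 and Mfn2 were higher and Mtmr2 lower. In a fit without the E13 libraries, which hold the 2 libraries farthest from their stage, 6 of the 10 passed in this comparison: Ndrg1, Sbf2 (0.30, adjusted p = 0.000169) and Mfn2 (0.25, adjusted p = 0.00217) higher, and Mtmr2, Fgd4 and Sh3tc2 (-0.22, adjusted p = 0.0169) lower. The same fit called 7 instead of 6 at P1 against E17, with Fgd4 added as higher, 4 instead of 2 at P14 against P5, with Mfn2 added as higher and Litaf as lower, 2 instead of 1 at P24 against P14, with Fgd4 added as lower, and 3 instead of 1 at P60 against P24, with Sbf2 added as higher and Mtmr2 as lower. The summed level of the perineurial markers Slc2a1 and Itgb4, both higher at P60, was 406 to 476 CPM at P14 and 932 to 1189 CPM at P60. That of the myelinating Schwann markers Mbp and Ncmap, 1 of them lower, was 45142 to 58679 CPM at P14 and 24924 to 34125 CPM at P60. All 4 adipocyte markers (6.27 to 71.2 CPM at P14 and 175 to 549 CPM at P60), 1 of 2 epineurial (37.8 to 56.7 and 103 to 118 CPM), 2 of 3 endothelial (103 to 140 and 192 to 233 CPM) and 4 of 8 neuron markers (17.3 and 28.6 CPM on average) were higher at P60 too. Both proliferation markers (107 and 3.55 CPM on average), the 3 of immature or non-myelinating Schwann cells (319 to 397 and 204 to 245 CPM) and 4 of 6 blood markers (107 to 203 and 21.6 to 48.3 CPM) were lower. The Schwann lineage markers went both ways, with mean levels of 672 and 972 CPM at P14 and P60 for S100b. Sox10 averaged 468 and 449 CPM and Erbb3 553 and 351 CPM. Of the immune markers, 1 of 2 was higher at P60. The part of all these cell types in the members' late changes was not tested.

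**Figure D3:**
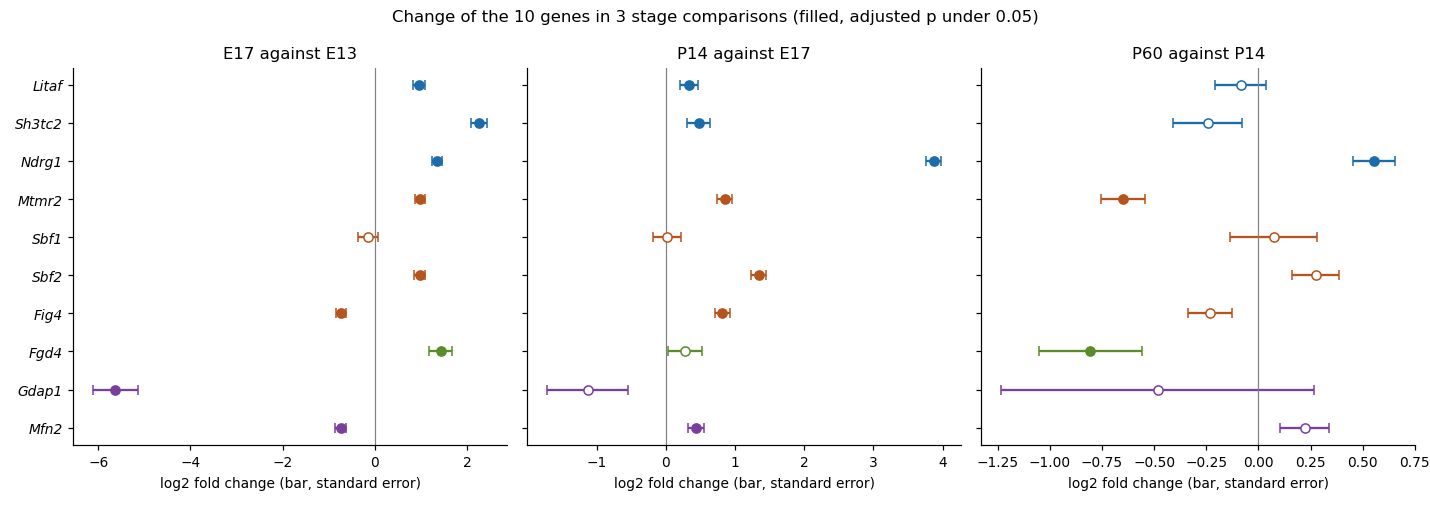
Log2 fold change of each gene in 3 comparisons, with bars of the standard error and filled points where the adjusted p was under 0.05 (each panel has its own axis). At E17 against E13, 9 of the 10 are filled, at P14 against E17, 7 are filled and all lie above 0, and at P60 against P14, Ndrg1 lies above 0 and Mtmr2 and Fgd4 below.

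Compared per length of annotated exon, the order of the members changed along the timeline. At E13 Mfn2 led with 20.2 ± 5.2 CPM per kb (mean ± SD, n = 4), followed by Ndrg1 with 13.8 ± 2.4 and Mtmr2 with 13.2 ± 2.4, with ranges that overlapped. At P14 Ndrg1 led with 515 ± 22 CPM per kb, followed by Mtmr2 with 47.0 ± 2.3, Sh3tc2 with 33.8 ± 2.0 and Sbf2 with 32.6 ± 0.90, of which the last pair do not differ beyond their spread. At P60 Ndrg1 had 757 ± 30 CPM per kb, and Sbf2 with 39.5 ± 1.0 had passed Mtmr2 with 30.0 ± 2.0 and Sh3tc2 with 28.5 ± 1.5. Fgd4 (1.19 to 4.22 CPM per kb) was among the lowest at every stage, and Gdap1 was lowest from E17 on with at most 0.0951 CPM per kb. Annotated exons include rare transcripts, so a level per length is lower for a gene such as Fgd4 with 17517 exon bases than its main transcript alone would give.

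**Figure D4:**
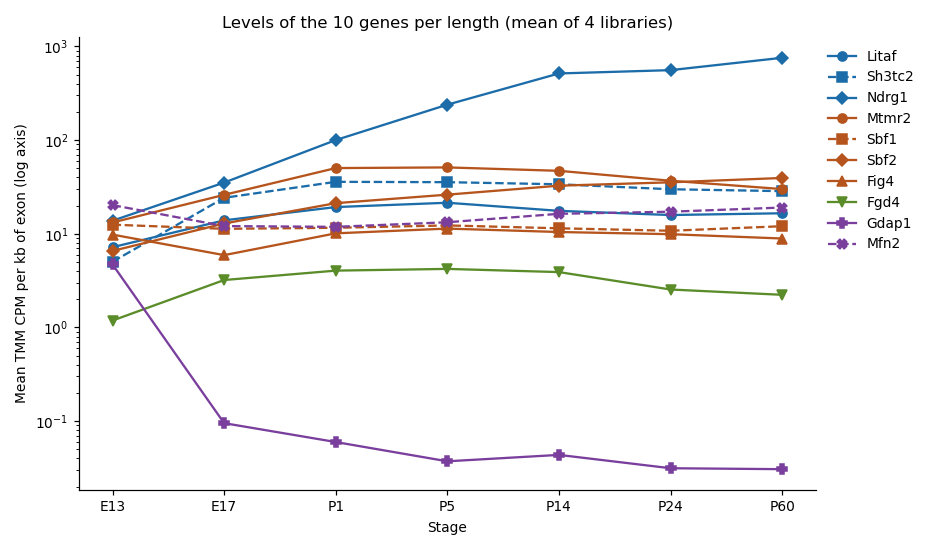
Mean level of each gene per kb of annotated exon (CPM per kb, logarithmic axis, mean of 4 libraries) by stage, coloured by role (blue for membrane traffic, orange for phosphoinositides, green for Fgd4, purple for mitochondria). Ndrg1 leads from E17 on and reaches 757 CPM per kb at P60, and Gdap1 falls from 4.71 to 0.0951 CPM per kb between E13 and E17.

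Of 22 other phosphoinositide enzymes, 10 were higher and 1 lower at P14 than at E17 (29.5% and 27.0% of all genes were), with a median of 0.38 beside 0.00 for all genes, but 2 were higher and 9 lower under scaling by library size alone. Inpp4a, a 4-phosphatase of these lipids, had the largest rise among those of at least 10 CPM (31.9 ± 2.0 to 70.0 ± 3.2 CPM, 2.20-fold, adjusted p = 1.13e-09), and Inpp5f fell from 64.9 ± 2.8 to 39.3 ± 1.5 CPM (adjusted p = 0.000146). The partners of Fig4 did not pass, with 0.48 ± 0.23 for Pikfyve (adjusted p = 0.0806) and 0.05 ± 0.15 for Vac14 (adjusted p = 0.806), and neither did the close Mtmr2 relative Mtmr1 (0.36 ± 0.18, adjusted p = 0.0920). Fig4 itself rose in the same comparison (0.82 ± 0.11), and whether it differed from its partners was not tested.

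Of 27 genes of endosomal recycling and ESCRT, 13 were higher and 2 lower at P14 than at E17 (median 0.40), beside the same 29.5% and 27.0% of all genes, against 6 and 6 under scaling by library size alone. Both Rab11 genes, which encode GTPases of the recycling endosome where Sh3tc2 acts, were higher (Rab11a by 0.43 ± 0.15, adjusted p = 0.0162, and Rab11b by 0.78 ± 0.12, adjusted p = 5.99e-06). Rab11fip4, an effector of Rab11, had the largest rise (1.96 ± 0.20 to 16.7 ± 1.6 CPM, 8.49-fold, adjusted p = 1.09e-14). Nedd4, a ubiquitin ligase that binds Litaf, had the largest fall (2133 ± 36 to 912 ± 70 CPM, adjusted p = 1.08e-07). At P60 against P14, 3 of the 27 were higher and 3 lower (14.2% and 15.7% of all genes were), while under scaling by library size alone 8 were higher.

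In the NDRG family, Ndrg2 (0.40 ± 0.12, adjusted p = 0.00669) and Ndrg3 (0.50 ± 0.08, adjusted p = 6.66e-06) were higher at P14 than at E17 and Ndrg4 did not pass (0.13 ± 0.12, adjusted p = 0.375), while under scaling by library size alone 1 of the 3 passed, as lower. From P14 to P60 Ndrg2 rose by 1.35 ± 0.12 and Ndrg3 by 0.43 ± 0.08, and Ndrg4 fell by 0.57 ± 0.12 on the log2 scale (adjusted p = 2.24e-09, 0.000135 and 0.000717). The rise of Ndrg1 from E17 to P14 was 3.87 on the same scale.

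In the Cdc42 and FGD family, 4 of 9 genes were higher and 2 lower at P14 than at E17, beside 29.5% and 27.0% of all genes, or 1 and 3 under scaling by library size alone. Arhgef10, an exchange factor of small GTPases whose human gene is linked to slowed nerve conduction, went from 173 ± 9.3 to 456 ± 38 CPM (adjusted p = 2.06e-08), Cdc42 rose by 0.46 ± 0.12 (adjusted p = 0.00148), and Fgd5, an endothelial member of the family, fell from 153 ± 11 to 46.7 ± 3.4 CPM (adjusted p = 3.25e-11). From P14 to P60 Cdc42 fell by 0.43 ± 0.12 on the log2 scale (adjusted p = 0.00489), in the span in which Fgd4 fell by 0.81.

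Of 19 genes of mitochondrial dynamics, 8 were higher at P14 than at E17 and 11 did not pass (median 0.21), beside 29.5% of all genes higher and 27.0% lower, but 3 were higher and 7 lower under scaling by library size alone. Opa1, which joins inner membranes, was higher by 0.44 ± 0.17 (adjusted p = 0.0331), the other mitofusin Mfn1 had a change of 0.00 ± 0.18 (adjusted p = 0.991), and Dnm1l, the fission GTPase, had -0.60 ± 0.26 (adjusted p = 0.0507). Rhot1, which couples mitochondria to motor proteins, had the largest rise among those of at least 10 CPM (65.1 ± 4.1 to 153 ± 8.4 CPM, 2.36-fold, adjusted p = 1.69e-08). At P60 against P14, 1 was higher and 3 lower (14.2% and 15.7% of all genes were), or 4 higher and 1 lower under that scaling.

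The myelin and myelin-regulator genes of the same group of diseases set the scale. Pmp22, Gjb1, Prx, Egr2 and Pmp2 were all higher at P14 than at E17, also under scaling by library size alone, with a median of 5.83 on the log2 scale beside 0.46 for the 10 genes described here, and Gjb1, the connexin of non-compact myelin, went from 0.229 ± 0.15 to 157 ± 16 CPM. From P14 to P60, 2 of the 5 were lower (Pmp22 and Pmp2) and 3 did not pass.

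**Figure D5:**
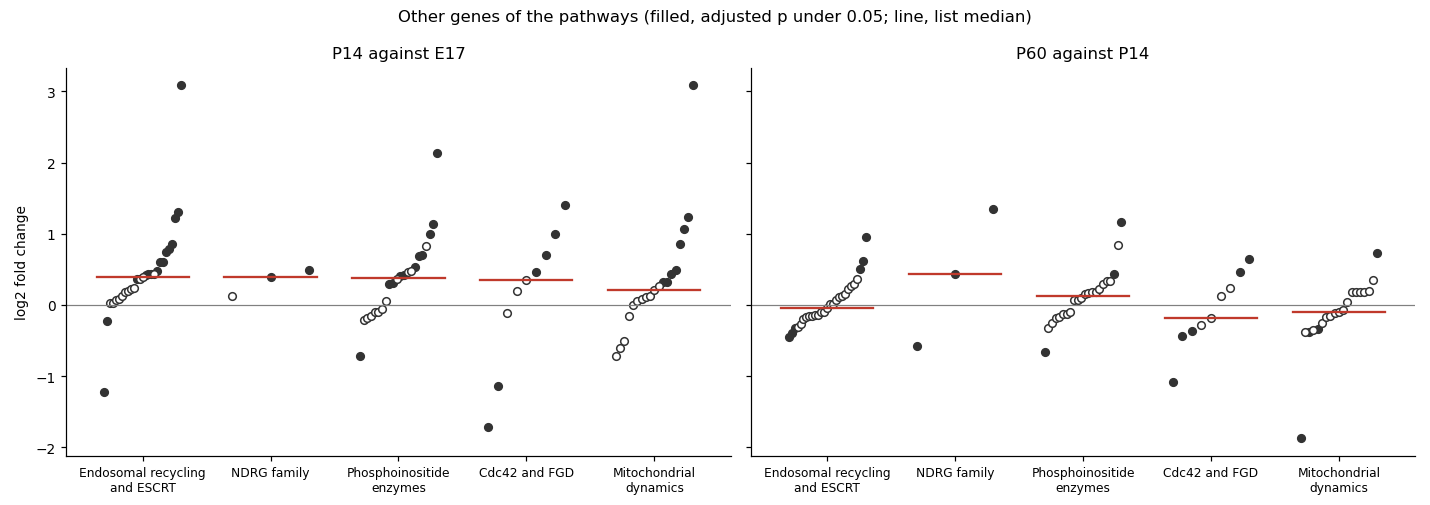
Log2 fold change of the other genes of 5 pathway lists (1 point per gene, filled where the adjusted p was under 0.05, red line at the list median) at P14 against E17 (left) and P60 against P14 (right), in the fit with TMM scaling. List medians lie at 0.21 to 0.40 on the left and -0.19 to 0.43 on the right.

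The genes whose course was most like that of each member were taken from 9775 protein-coding genes of at least 10 CPM by the Pearson correlation of log2 CPM over the 28 libraries. Ndrg1 was followed most closely by S100b (0.998), a calcium-binding protein of Schwann cells that stood at 972 CPM at P60, and by Stat6 (0.995). Sbf2 was followed by Stxbp6 (0.996) and Pdcd6ip (0.994), an ESCRT-associated protein that went from 66.2 to 219 CPM. Sh3tc2 was followed by Itpr3 (0.992), a calcium channel of the endoplasmic reticulum, and Tm7sf3 (0.986), Litaf by Sh3tc2 and Stk10 (0.961), and Mtmr2 by Ypel2 (0.979) and Abhd3 (0.976).

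Fgd4 was most like Sec24a (0.980), a coat protein of vesicles leaving the endoplasmic reticulum, and Ankrd13c (0.973). Gdap1 was most like Nova1 (0.961), a neuronal splicing factor that went from 154 CPM at E13 to 12.4 CPM at E17, and Enc1 (0.957). Mfn2 was most like Apbb1 (0.952) and Stoml1 (0.948), Fig4 like Rgs3 (0.917) and Eif2ak1 (0.884), and Sbf1 like Sympk (0.967) and Rps15 (0.956). Sbf1 did not pass the F test of all stages (adjusted p = 0.953), so its likeness describes spread within stages more than a course. At E13 the SD was 33.3 CPM for Sbf1, 41.0 CPM for Sympk and 242 CPM for Rps15. These correlations share the libraries, their depth and the step from E13, and without the E13 libraries 1 of the 2 names was kept for Ndrg1 (S100b) and Fgd4 (Sec24a) and none for the other 8. With the Spearman correlation in place of Pearson's, 1 of the 2 names was kept for Sh3tc2, Fig4, Fgd4 and Mfn2 and none for the other 6, Ndrg1 included.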

How the data were processed

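The study's authors extracted RNA from frozen, ground nerve, made stranded TruSeq poly-A libraries, sequenced single-end reads, trimmed them, aligned them with STAR (2.6.1c per the submitters' processing notes) and assigned them to genes with featureCounts. The deposited values are raw counts per gene, not normalized. The submitters' notes name the build GRCm38.p5, and the use of strand and of reads with several alignments is not given in the sources used here. Of 41605 identifiers, 41519 matched GENCODE M21 (GRCm38), which supplied symbols, exon lengths and GC content, and 86 did not. The study describes 4 independent samples per stage.

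Genes were filtered with filterByExpr (17700 left), scaled by TMM and fitted with edgeR 4.0.16 (R 4.3.3, robust quasi-likelihood fit, stage as the only term, all 28 libraries together, common dispersion 0.0439). Contrasts were tested with Benjamini-Hochberg adjustment over all genes, and the standard error was taken as the log2 fold change over the square root of F. The procedure was tried on simulated counts with a common dispersion for all genes and equal numbers of genes raised and lowered. That simulation held no GC slopes and no outlying libraries, so it cannot show how the calls depend on these or on the scaling. Log2 CPM used a prior count of 2. Alternatives were DESeq2 size factors, library size alone, 2 other filters (none, and at least 10 counts in every library of a stage), the DESeq2 Wald test (1.42.0), limma-voom with sample weights (3.58.1), fits of the compared stages alone, without E13 or without 3 libraries, a replicate block, a fold of at least 2 and each library left out. Removal of a GC trend (99.8% of tested genes had a value) was added after seeing the data. The members, lists and tests were chosen with earlier results of these data known. Named genes are the 10 members, the 2 most like each, 12 partners of the members (Mtmr1, Mfn1, Ndrg2, Ndrg3, Ndrg4, Vac14, Pikfyve, Opa1, Dnm1l, Rab11a, Rab11b, Cdc42) and the largest passing rise and fall per list at P14 against E17 with at least 10 CPM in the higher stage. Most like means the largest Pearson correlation of log2 CPM over the 28 libraries among protein-coding genes averaging 10 CPM or more. Outside that rule, cell type markers, the 5 comparison genes of myelin and genes overlapping a member's exons were named. 1 cell type marker is not reported here.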

Additional observations from a re-analysis of the deposited data

Results flagged for a closer look

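In 4 of 70 groups of 4 libraries (10 genes at 7 stages) the highest or lowest library lay so far from the nearest other, relative to the group's range, that it passed Dixon's 95% critical value, and chance gives about 1 such group in 20. Ndrg1 had 237.5 CPM in E17 replicate 4, with 230.5 to 230.8 CPM in the other E17 libraries. Mtmr2 had 137.1 CPM in E17 replicate 1, with 124.0 to 125.5 CPM in the others, and 162.0 CPM in P60 replicate 2, with 140.6 to 144.2 CPM in the others. Mfn2 had 82.6 CPM in P24 replicate 2, with 91.1 to 92.2 CPM in the others.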

How the results depend on the processing

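With a fold change of at least 2 the members passing fell to 4 at E17 against E13, 1 at P1 against E17, 1 at P14 against P5, 0 at P24 against P14, 0 at P60 against P24, 2 at P14 against E17 and 0 at P60 against P14. The DESeq2 Wald test called 2 at P5 against P1 and 2 at P60 against P24. Limma-voom, fits of the compared stages alone, without E13 or without the 3 libraries that stood apart, and both fits with the GC trend removed each called 2 at P5 against P1, 4 at P14 against P5, 2 at P24 against P14, 2 or 3 at P60 against P24, 8 or 9 at P14 against E17, and 6 or 7 at P60 against P14. At P1 against E17 they called 7, except 6 without the 3 libraries. At P24 against P14, DESeq2 size factors, library size alone and both other filters called 0. At P14 against P5, library size alone called 4 (Ndrg1 higher, and Litaf, Fig4 and Mtmr2 lower) and no filter 1. With 1 library left out the counts ran from 9 to 10 at E17 against E13, 1 to 2 at P14 against P5, 0 to 1 at P24 against P14, 1 to 2 at P60 against P24 and 6 to 7 at P14 against E17.

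The replicate numbers were not taken as a pairing, since the labels tie them to no shared animal or batch and deviations of same-numbered libraries correlated at -0.20 to 0.57. As a hint from the data, not the design, of some structure shared by number, the median was 0.084 against -0.040 for other pairs, and 18 of 28 libraries correlated best with their own number. The replicate block changed no member's call, and called 969 genes instead of 964 at P24 against P14.

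Of the pathway lists at P14 against E17, a fold of at least 2 left 2 phosphoinositide, 4 endosomal, 0 NDRG, 3 Cdc42 and FGD and 3 mitochondrial genes, and library size alone 1 NDRG gene. At P60 against P14 it left 1, 0, 1, 1 and 1 and 1 myelin gene. There the DESeq2 Wald test called 5 phosphoinositide genes, library size alone 10, and limma-voom 11 phosphoinositide, 14 endosomal, 8 mitochondrial and 4 myelin genes.

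Directions turned mostly where the change was near 0. With library size alone, Litaf had -0.16, Sh3tc2 -0.012, Sbf1 -0.47, Fgd4 -0.21 and Mfn2 -0.057 at P14 against E17, Litaf 0.092 at P60 against P14, Sh3tc2 0.051 at P60 against P24, Sbf1 -0.084 at P1 against E17, and Litaf -0.046, Mtmr2 -0.18, Sbf1 -0.11, Fgd4 -0.14 and Mfn2 -0.037 at P5 against P1, where the value was -0.034 for Fig4. Sbf1 at P14 against E17 was -0.0022 with DESeq2 size factors, -0.0022 with the Wald test and -0.0033 without E13. At P1 against E17, Sbf1 was -0.0037 with the GC trend removed (-0.0046 with the replicate block added), and Mfn2 0.019 with no filter, 0.0046 in the compared stages alone and 0.0044 without the 3 libraries. At P5 against P1, Sh3tc2 was 0.0013 with the replicate block, Mtmr2 -0.0059 with no filter and -0.0058 without E13, and Sbf1 -0.036 with limma-voom and -0.076 without the 3 libraries. With 1 library left out, Sbf1 ran from -0.40 to 0.049 at E17 against E13, -0.065 to 0.20 at P1 against E17, -0.076 to 0.19 at P5 against P1 and -0.033 to 0.067 at P14 against E17, Mfn2 from -0.074 to 0.0041 at P1 against E17, Sh3tc2 from -0.084 to 0.039 and Mtmr2 from -0.023 to 0.11 at P5 against P1, and Gdap1 from -0.15 to 0.58 at P14 against P5, -1.10 to 0.037 at P24 against P14 and -0.59 to 0.62 at P60 against P24. Apart from the scaling by library size, the cause was not tested.

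Over all genes, the settings other than the omission of 1 library called 6276 to 12880 genes at E17 against E13 (11014 as reported), 2074 to 9279 at P1 against E17 (5225), 1033 to 6686 at P5 against P1 (3114), 2127 to 9005 at P14 against P5 (5233), 469 to 3352 at P24 against P14 (964), 1055 to 5717 at P60 against P24 (2845), 5560 to 12514 at P14 against E17 (10001) and 2285 to 8475 at P60 against P14 (5296). With library size alone the share of called genes that were higher went from 45.2% to 31.5%, 51.3% to 37.5%, 58.3% to 26.3%, 52.0% to 31.3%, an equal split to 62.4%, 42.6% to 62.4%, 52.2% to 27.3% and 47.6% to 68.2% in the same order. Depth limits Gdap1 after E13, with at most 20 counts a library.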
